A study of Mus musculus with 21 samples.

Results

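The unmodified state of 2 mouse cell lines, 3T3-L1 and M27H4, was compared through their empty vector control libraries. These are 7 of the 21 samples in the series and, once sequencing repeats of the same culture were summed, 5 of its 14 biological replicates: 2 of 3T3-L1 and 3 of M27H4. 3T3-L1 is a preadipocyte line, and M27H4 is a line from a mammary gland tumour of mice in which a C3(1) promoter drives the SV40 T antigen. The study as a whole asked what an RNA transcribed antisense to the splicing factor gene Esrp2 does: it was knocked down with antisense LNA gapmers in M6, a second line from the same tumour model, and overexpressed in M27H4 and 3T3-L1. All libraries were strand-specific and made from total RNA after removal of ribosomal RNA, and the lines were grown in the same medium with fetal calf serum. Both groups compared here carry the empty vector only. Each is 1 line, so the differences are between these lines and not between preadipocytes and tumour cells in general. The labels call the replicates biological but do not say how the cultures were kept apart, so p-values measure the spread between these samples.

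Fibroblast-like cells and epithelial cells are told apart by the molecules with which they hold on to each other and to their surroundings. Fibroblasts and preadipocytes secrete fibrillar collagens, fibrillin and fibronectin and use N-cadherin or cadherin-11, while epithelial cells are joined by E-cadherin, tight junctions and desmosomes over a keratin skeleton and rest on laminin through hemidesmosomes. The transcription factors Zeb1, Zeb2, Snai1, Snai2, Twist1 and Twist2 repress epithelial genes in cells that pass from the second state to the first, and the splicing factors Esrp1 and Esrp2 maintain epithelial forms of many transcripts. SV40 T antigen binds and disables the p53 and retinoblastoma proteins, and preadipocytes turn into adipocytes when Pparg and Cebpa are induced.

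Summed deposited counts ranged from 60470462 to 218986482 per replicate, which places a floor of 3 counts at 0.0137 to 0.0488 CPM (counts relative to library size, scaled by the trimmed mean of M values). Replicates of a line differed by 31.7 to 71.7 times counting error. The number after LR in each column name, which the labels do not define, is shared by M27H4 replicate 2 and 3T3-L1 replicate 1, and a different one by M27H4 replicate 3 and 3T3-L1 replicate 2. M27H4 replicate 1 therefore shares its LR code with no 3T3-L1 library, and it stood apart in a specific way. Over 17 genes at 100 CPM or more in 3T3-L1, picked after their values were seen and by a level under 0.1% in that replicate, the median level in M27H4 was 0.00799% of that in 3T3-L1 in replicate 1, 1.03% in replicate 2 and 1.17% in replicate 3. The M27H4 overexpression libraries, which were not used to pick these genes, gave 0.0265%, 1.03% and 1.13%, with the low value again in the library that has the LR code of M27H4 control replicate 1. A further 32 genes at 100 CPM or more in M6 were picked by a level under 0.1% in M27H4 replicate 1 and a 3T3-L1 mean under 2% of M6. The M27H4 controls stood at 0.00334%, 1.08% and 0.772% of M6 and the 3T3-L1 controls at 0.403% and 0.477%. The picking itself caps the values of M27H4 replicate 1 and of 3T3-L1. The overexpression libraries, not used to pick these genes, gave 0.0518%, 1.04% and 0.842% in M27H4 and 0.5% and 0.456% in 3T3-L1. A level under about 1% of another line was therefore treated as possible carry-over between libraries; its source was not tested. Since no LR code holds 3T3-L1 without M27H4, the low 3T3-L1 levels of genes that M27H4 expresses strongly have no such check.

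**Figure D1:**
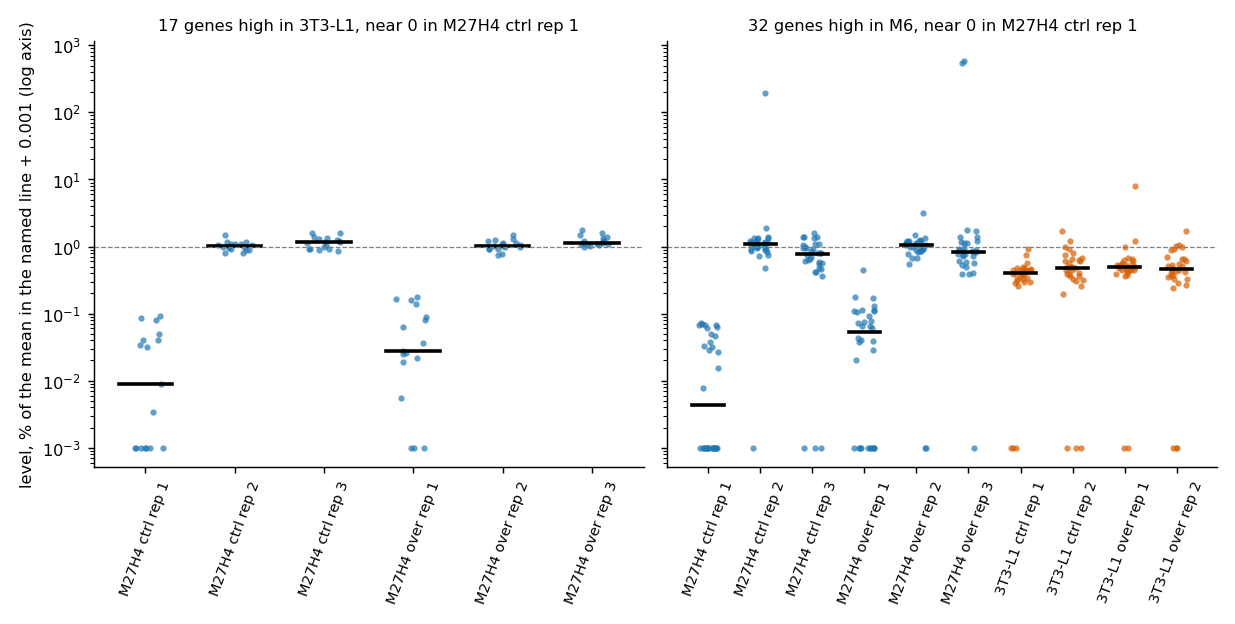
Each point is 1 gene in 1 library of the M27H4 or 3T3-L1 lines, as a percentage plus 0.001 (log axis) of its mean level in the source line, for 17 genes high in 3T3-L1 and 32 genes high in M6; bars are medians. The M27H4 control and overexpression libraries that share no LR code with 3T3-L1 lie far below the others, which gather near 1% of 3T3-L1 or M6 apart from single genes reaching 194% and 590% of M6, and the 3T3-L1 libraries lie near 0.4% to 0.5% of M6.

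Of 21237 genes tested, 7777 (36.6%) differed between the lines at an adjusted p under 0.05 by edgeR's quasi-likelihood test, 4007 (18.9%) higher in 3T3-L1 and 3770 (17.8%) higher in M27H4. These shares are the background against which each gene group below is read. Replicate ranges of the lines did not overlap for 7725 of the 7777 called genes and for 12860 (60.6%) of all genes tested. A difference shown to exceed 2-fold was found for 3607 genes (17%), and 1637 called genes were at a log2 difference of 3 or more in favour of 3T3-L1 against 977 in favour of M27H4. Protein coding genes made up 6583 of the calls (84.6%), beside 206 long intergenic and 209 antisense RNAs. The 5 libraries of the same lines that carry the overexpression construct are separate samples, and 6436 of the control calls were called there in the same direction, which is 82.8% of the control calls and 86.8% of the 7412 overexpression calls (34.9% of genes tested). Only 2 genes were called in opposite directions. Without 3T3-L1 overexpression replicate 2 the overexpression calls numbered 4711. In 850 called genes the lower line stood under 1% of the higher, 538 of them higher in 3T3-L1 and 312 higher in M27H4, and for these the size of the difference rests on levels that may be carry-over. In bulk RNA, fewer cells of a type and less RNA per cell cannot be told apart.

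**Figure D2:**
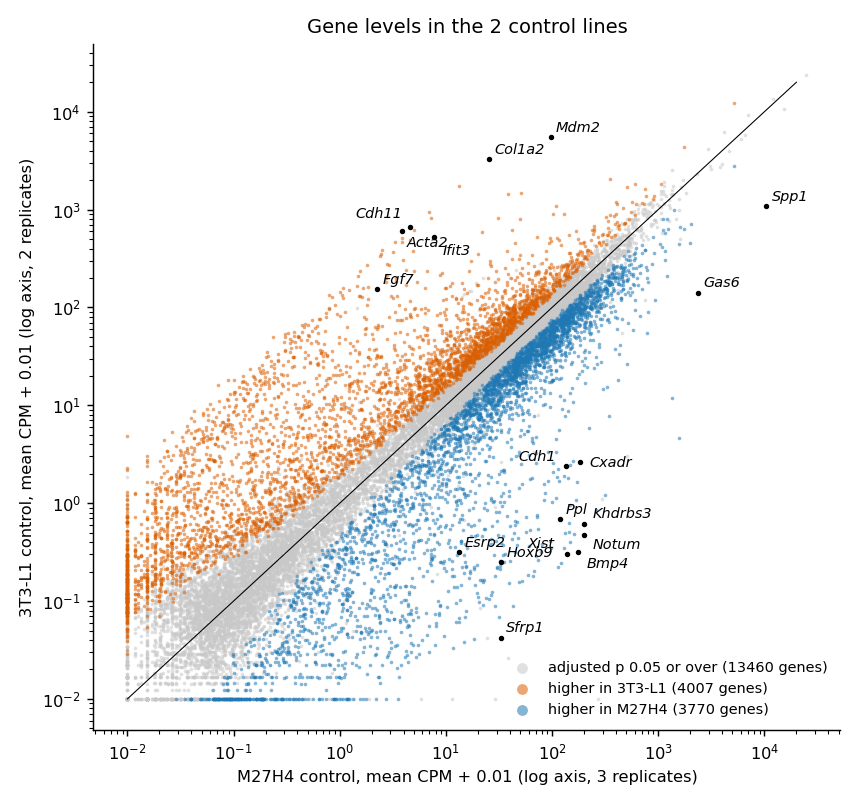
Mean level of each of the 21237 tested genes in the M27H4 controls (x axis, 3 replicates) and the 3T3-L1 controls (y axis, 2 replicates), in CPM plus 0.01 on log axes, with the diagonal drawn. Mdm2, Fgf7 and Acta2 lie far above the diagonal and Bmp4, Sfrp1, Xist and Khdrbs3 far below it, while Spp1 is high in both lines and higher in M27H4.

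The genes with the largest differences on the M27H4 side included several regulators of Wnt and BMP signalling. Sfrp1, a secreted antagonist of Wnt ligands, stood at 0.0319 and 0.0323 CPM in the 3T3-L1 replicates and at 46, 31.6 and 21.4 CPM in M27H4 (log2 difference, 3T3-L1 minus M27H4, of -9.97, SE 0.54, adjusted p = 3.53e-08). Bmp4, a bone morphogenetic protein ligand, stood at 0.305 and 0.307 CPM against 158, 186 and 178 CPM (-9.15, SE 0.36, adjusted p = 4.58e-09). Notum, an enzyme that inactivates Wnt ligands, was measured at 0.305 and 0.63 CPM against 157, 263 and 173 CPM (-8.75). Rnf43, a ubiquitin ligase that removes Wnt receptors, stood at 0.0455 and 0 CPM against 9.31, 13.5 and 12.4 CPM (-8.71; -7.96 without 3T3-L1 replicate 2, and without replicate 1 the remaining 3T3-L1 library has no count). The genes were chosen for separate ranges, so the absence of overlap is no result. The others of the 12 chosen for their size were Alpl, tissue-nonspecific alkaline phosphatase (-9.04), the nuclear receptor gene Rorb (-8.63), coagulation factor F5 (-8.96), the sodium-proton exchanger Slc9a7 (-9.09; -9.81 without 3T3-L1 replicate 2), Ism1 (-9.34; -8.54 and -10.29 without 3T3-L1 replicate 1 or 2), Lonrf3 (-9.19; -8.44 and -10.10), Tspan15 (-9.13) and the receptor phosphatase Ptprg (-8.60). The 3T3-L1 level of these 12 lay between 0.0972% and 0.26% of that in M27H4.

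On the 3T3-L1 side the 12 largest differences were all in genes whose M27H4 level lay under 1% of that in 3T3-L1, between 0.378% and 0.624%. Acta2, smooth muscle alpha-actin, stood at 600 and 620 CPM in 3T3-L1 and at 0.0488, 5.68 and 5.69 CPM in M27H4 (log2 difference 7.31, SE 1.94, adjusted p = 0.0178; 0.0524 without M27H4 replicate 3). Dpysl3, a cytoskeletal regulator, stood at 146 and 121 CPM against 0, 1.19 and 1.16 CPM (7.34). Armcx1, a mitochondrial outer membrane protein, stood at 45.6 and 53.2 CPM against 0, 0.477 and 0.204 CPM (7.59; 8.66 without M27H4 replicate 2). In these genes M27H4 replicate 1 was at or near 0 while replicates 2 and 3 lay between it and about 1% of 3T3-L1. The remainder were Xkr6 (7.77; 8.79 without M27H4 replicate 2), the lipocalin gene Apod (7.65; 8.37 and 6.24 without 3T3-L1 replicate 1 or 2), the ectodysplasin gene Eda (7.45), protocadherin Pcdh9 (7.43; 8.49 without M27H4 replicate 2), the sodium-calcium exchanger Slc8a1 (7.37), the chromatin remodeller Smarca1 (7.32), Cdh26 (7.32; 8.09 without M27H4 replicate 3), Hoxa7 (7.28) and the junctional molecule Jam3 (7.27).

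The 3T3-L1 label was checked against 36 fibroblast and mesenchymal genes. Of the 34 tested, 22 were higher in 3T3-L1 and 3 higher in M27H4, with a median log2 difference of 1.65 against 0.02 over all genes. Cd248, endosialin of stromal cells, stood at 56.1 and 52.2 CPM in 3T3-L1 and at 1.77, 2.26 and 1.94 CPM in M27H4 (4.76, adjusted p = 9.31e-08). Dlk1, the surface protein known as preadipocyte factor, stood at 58.7 and 49.7 CPM against 0, 0.749 and 1.1 CPM (6.38, adjusted p = 0.00479). Zfp423, a zinc finger factor of preadipocytes, was low in absolute terms, at 3.27 and 5.52 CPM against 0.13, 0.278 and 0.0897 CPM (4.67, adjusted p = 4.68e-05; 5.36 without M27H4 replicate 2). Thy1 (2.25) and the matrix glycoprotein gene Fbln1 (2.90) were also higher in 3T3-L1, and the homeobox gene Meox2 (7.36; 8.36 without M27H4 replicate 2) lay under 1% in M27H4. M27H4 was not without mesenchymal transcripts. Pdgfra, the receptor for platelet-derived growth factor that marks many fibroblasts, stood at 898, 770 and 929 CPM in M27H4 against 224 and 326 CPM in 3T3-L1 (-1.66, SE 0.24, adjusted p = 0.000113). The stem cell antigen gene Ly6a stood at 424, 319 and 339 against 147 and 136 CPM (-1.35, adjusted p = 0.000523). Pdgfrb, the relative of Pdgfra, went the other way, at 128 and 143 CPM in 3T3-L1 against 40.2, 53.6 and 57 CPM (1.43, SE 0.23, adjusted p = 0.000252). Vim, the intermediate filament protein of mesenchymal cells, stood at 1556 and 1536 CPM in 3T3-L1 and at 899, 1301 and 1128 CPM in M27H4 (0.48, adjusted p = 0.0665), a difference that passed in the overexpression libraries (0.64, adjusted p = 0.0189). Vimentin RNA was among the abundant transcripts of both lines.

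Genes of the fibrillar matrix made up one of the larger differences between the lines. Of 34 matrix genes tested, 19 were higher in 3T3-L1 and 4 higher in M27H4 (median 2.65). The chains of type I collagen, the main fibre of connective tissue, were abundant in 3T3-L1 and low in M27H4: Col1a1 stood at 571 and 417 CPM against 1.24, 6.18 and 6.25 CPM (6.75, SE 1.05, adjusted p = 0.000833). Col1a2 stood at 3625 and 2869 CPM against 1.06, 35.7 and 38.9 CPM (7.01, adjusted p = 0.0611). Col1a2 was the only gene at 100 CPM or more in 3T3-L1 with a log2 difference over 5 that was not called, and it was not called without M27H4 replicate 1 either (adjusted p = 0.118). Type III collagen, Col3a1, stood at 1610 and 1908 CPM against 1.41, 16.8 and 21.6 CPM (7.04, adjusted p = 0.0422), with M27H4 replicates 2 and 3 near 1% of 3T3-L1. Fibrillin-1, the core of microfibrils, was measured at 781 and 393 CPM against 14.4, 27.1 and 23.6 CPM (Fbn1, 4.76, adjusted p = 2.7e-07; 4.18 without 3T3-L1 replicate 1). Thrombospondin-1, an adhesive glycoprotein, stood at 1102 and 1093 CPM against 130, 117 and 83.8 CPM (Thbs1, 3.32, adjusted p = 2.16e-06), well above 1% in every M27H4 replicate. The basement membrane collagen gene Col4a1 followed the 3T3-L1 side as well, at 647 and 374 CPM against 0.0488, 6.19 and 5.27 CPM (7.04, adjusted p = 0.00753). The exceptions in M27H4 were Col14a1, a collagen that binds the surface of fibrils, at 53.9, 31.8 and 53.3 CPM against 0.237 and 0.493 CPM (-7.02), the calcification inhibitor Mgp (-3.38), Col12a1 (-1.82) and Col8a1 (-1.74). Fibronectin did not pass, at 608 and 382 CPM in 3T3-L1 against 2539, 1414 and 805 CPM in M27H4 (Fn1, -1.68, adjusted p = 0.0593), and neither did the matricellular protein gene Sparc (0.48, adjusted p = 0.111).

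Enzymes that modify and crosslink matrix proteins were split, with 11 of 22 higher in 3T3-L1 and 5 higher in M27H4 (median 0.54). Lysyl oxidase, which crosslinks collagen and elastin, stood at 546 and 702 CPM in 3T3-L1 and at 243, 179 and 291 CPM in M27H4 (Lox, 1.39). The collagen chaperone gene Serpinh1 (1.72), the prolyl hydroxylation factor Crtap (2.55) and the procollagen protease Adamts14 (2.99) were on the same side. Transglutaminase 2, which joins proteins through glutamine and lysine, was among the clearest genes of M27H4, at 382, 292 and 322 CPM against 14.7 and 16.3 CPM (Tgm2, -4.42, adjusted p = 3.8e-08). The collagen hydroxylases Plod2 (-2.17) and P3h2 (-3.84) were also higher in M27H4.

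The adipocyte programme was measured in both lines before any differentiation. Of 19 adipocyte genes tested, 3 were higher in 3T3-L1 and 9 higher in M27H4 (median -0.82), and genes of the filled fat cell were near 0: Adipoq, Plin1, Cidec, Lep, Cfd and Cd36 did not exceed 0.0488 CPM in any of the 5 replicates. Pparg, the master regulator of fat cell formation, stood at 21.3 and 21 CPM in 3T3-L1 and at 0.943, 1.85 and 1.74 CPM in M27H4 (3.80, adjusted p = 1.23e-06). Its partner Cebpa was on the other side, at 14.9, 27.8 and 34 CPM in M27H4 against 2.55 and 3.51 CPM (-3.08, adjusted p = 2.81e-05). The fatty acid carrier Fabp4 was low and overlapped between the lines, at 1.82 and 2.74 against 4.23, 0.969 and 1.86 CPM. Those higher in M27H4 included lipogenic genes: Scd1, which desaturates fatty acids, at 928, 1063 and 823 CPM against 127 and 109 CPM (-2.99, adjusted p = 1.14e-07). Srebf1, the transcription factor that controls fatty acid synthesis, stood at 192, 289 and 201 CPM against 54.8 and 51.8 CPM (-2.09). A wider list of fatty acid and cholesterol synthesis genes gave 14 of 33 higher in M27H4, among them squalene epoxidase Sqle (-1.48), the elongase Elovl5 (-1.42) and Acss2 (-2.23), and Hmgcs1 alone higher in 3T3-L1 (0.95; median of the list -0.47).

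Factors that repress epithelial genes were present in both lines, but in different combinations. Of 14 genes of the epithelial to mesenchymal transition, 7 were higher in 3T3-L1 and 4 higher in M27H4 (median 1.92). Zeb1 stood at 44.4 and 45.9 CPM in 3T3-L1 and at 8.39, 10.3 and 10.2 CPM in M27H4 (2.23, adjusted p = 2.21e-06). Its relative Zeb2 stood at 61.5 and 49.6 CPM against 135, 157 and 117 CPM (-1.30, adjusted p = 0.000986). The forkhead genes Foxc1 and Foxc2 split in the same manner. Foxc1 was measured at 280, 297 and 291 CPM in M27H4 and at 26.4 and 29.6 CPM in 3T3-L1 (-3.37, adjusted p = 6.3e-08). Foxc2 stood at 9.26 and 9.09 CPM in 3T3-L1 and at 0.0325, 0.0734 and 0.0326 CPM in M27H4 (7.49, adjusted p = 4.63e-07; 8.11 without M27H4 replicate 2). Twist1 (31 and 31.8 CPM against 0, 0.304 and 0.269 CPM, 7.21) and Snai1 (5.49 and 5.35 CPM against 0.179, 0.0943 and 0.212 CPM, 5.10) were higher in 3T3-L1, and Snai2 did not pass (0.72, adjusted p = 0.0847). Of the mesenchymal cadherins, N-cadherin stood at 102 and 74.6 CPM against 3.82, 8.87 and 6.26 CPM (Cdh2, 3.80). Cadherin-11 stood at 702 and 635 CPM against 0.0163, 6.53 and 7.15 CPM (Cdh11, 7.18, adjusted p = 0.0336). M27H4 replicate 1 held almost no cadherin-11 RNA, and the other M27H4 replicates about 1% of the 3T3-L1 level.

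The M27H4 label was checked against 38 genes of epithelial junctions, of which 20 were higher in M27H4 and 2 higher in 3T3-L1 (median -1.14). The summed level of the list was 133 and 137 CPM in 3T3-L1 and 749, 953 and 1038 CPM in M27H4. E-cadherin, the adhesion molecule of adherens junctions, stood at 1.99 and 2.72 CPM in 3T3-L1 and at 113, 121 and 169 CPM in M27H4 (Cdh1, ENSMUSG00000000303, chr8:106603351-106670246 on GRCm38), a 57.1-fold difference (log2 -5.83, SE 0.40, adjusted p = 1.98e-07). The tight junction receptor Cxadr stood at 2.75 and 2.54 CPM against 169, 187 and 193 CPM (-6.11, adjusted p = 4.13e-09). Periplakin, which links desmosomes to keratin filaments, stood at 0.423 and 0.921 CPM against 125, 116 and 112 CPM (Ppl, -7.47, adjusted p = 8.7e-08; -8.10 without 3T3-L1 replicate 2). The desmosomal protein gene Perp, which is also a p53 target, stood at 2.36 and 3.06 CPM against 83.7, 186 and 199 CPM (-5.85). The epithelial protease inhibitor Spint2 followed, at 0.756 and 0.84 CPM against 31.9, 25.2 and 37 CPM (-5.30, adjusted p = 9.79e-06), with F11r (-2.28), Cldn1 (-5.24) and Evpl (-3.99). The junctional set of M27H4 was incomplete when read against M6, the other tumour line. Epcam stood at 731 CPM in the M6 controls on average, but at 0.0488, 8.14 and 4.73 CPM in M27H4 and at 3.24 and 2.9 CPM in 3T3-L1 (-0.51, adjusted p = 0.823; 0.34 without M27H4 replicate 2; -0.97, adjusted p = 0.0106 with the shared LR code as a block). In all, 13 of the 38 junction genes lay under 1% of M6 in both lines, including Cldn3, Cldn4, Cldn7, Dsp, Dsg2, Rab25 and St14. Patj, a polarity scaffold, was higher in 3T3-L1 (24.8 and 21.3 CPM against 6.37, 12.4 and 11 CPM, 1.21), as was P-cadherin (Cdh3, 1.55).

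Keratins were low in both lines. The summed level of 18 keratin genes was 31.5 and 41.5 CPM in 3T3-L1 and 60.9, 140 and 141 CPM in M27H4, and of 17 tested 4 were higher in M27H4 and 1 in 3T3-L1 (median -0.55; 1.51 with M27H4 replicate 1 alone). Krt18, a keratin of simple epithelia, stood at 4.42 and 6.36 CPM against 36.2, 65.3 and 76.5 CPM (-3.46, adjusted p = 7.2e-06), next to 997 CPM in M6. Its partner Krt8 stood at 3.91 and 6.07 CPM against 6.73, 21.7 and 20.6 CPM (-1.72, adjusted p = 0.0192; -0.43 with M27H4 replicate 1 alone). The Krt8 call was lost on leaving out any single control replicate except M27H4 replicate 1 (adjusted p = 0.0547 and 0.0533 without M27H4 replicates 2 and 3). The basal keratin Krt14 was measured at 6.77 and 6.86 CPM against 8.11, 24 and 13.5 CPM (-1.16, adjusted p = 0.128) and Krt5 did not exceed 0.147 CPM. Krt15, a keratin of basal cells, was the member higher in 3T3-L1 (3.80; 2.61 and adjusted p = 0.0664 without 3T3-L1 replicate 2).

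Of the epithelial splicing regulators, Esrp2 differed between the lines, and the call for Esrp1 depended on the fit. Esrp2 (ENSMUSG00000084128, chr8:106130319-106136974, minus strand) stood at 0.319 and 0.291 CPM in 3T3-L1 and at 11.3, 15 and 13.7 CPM in M27H4, a 43.5-fold difference (log2 -5.44, SE 0.29, adjusted p = 2.76e-08), and the overexpression libraries gave -5.22. Esrp1 stood at 0.378 and 0.565 CPM against 0, 0.985 and 1.03 CPM (-0.61, adjusted p = 0.708), next to 114 CPM in M6. With the shared LR code as a replicate block it was called (-1.12, adjusted p = 0.0258), as it was over the libraries of shared codes alone (-1.08, adjusted p = 0.00349). Its replicates overlapped between the lines and all lay at or under about 1% of M6. The antisense RNA of Esrp2, annotated as 1810019D21Rik (ENSMUSG00000086390, chr8:106135400-106138525, plus strand), stood at 0.25 and 0.355 CPM in 3T3-L1 and at 0.731, 1.25 and 0.889 CPM in M27H4 (-1.69, SE 0.53, adjusted p = 0.0234). That call was lost without M27H4 replicate 2 (adjusted p = 0.0759), without 3T3-L1 replicate 1 (-1.44) or 2 (-1.93) and by limma voom (0.23). It was also lost over the libraries of these 2 lines, alone (adjusted p = 0.0505) or with the shared LR code as a replicate block (0.102). Because the gene overlaps Esrp2 on the other strand, its counts are uncertain. Among other splicing factors, Rbm47, an RNA-binding protein of epithelia, stood at 1.04 and 1.27 CPM against 15.9, 16.3 and 12.8 CPM (-3.70, adjusted p = 1.39e-07). Khdrbs3, a STAR family splicing factor, stood at 0.259 and 0.953 CPM against 146, 187 and 264 CPM (-8.39, adjusted p = 8.76e-06; -7.70 and -9.56 without either 3T3-L1 replicate). Elavl2 (6.50; 7.18 without M27H4 replicate 3), Hnrnph1 (0.94) and Rbfox2 (0.70) were higher in 3T3-L1, and 6 of 31 splicing factors were called in each direction (median -0.12).

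Transcription factors of epithelial identity were on the M27H4 side where they differed: 9 of 23 were higher in M27H4 and 0 in 3T3-L1 (median -1.29; -0.37 without M27H4 replicate 2 and -2.04 without 3T3-L1 replicate 2). Gata3, the factor of the luminal mammary lineage, stood at 3.59 and 3 CPM in 3T3-L1 and at 162, 86 and 79.3 CPM in M27H4 (-5.05, adjusted p = 1.45e-07). Esr1, the oestrogen receptor, stood at 0.132 and 0.299 CPM against 33, 24.7 and 32.6 CPM (-7.17, adjusted p = 2.99e-07; -7.80 without 3T3-L1 replicate 2), and Tfap2b at 0.137 and 0.186 CPM against 15.1, 16.8 and 18.1 CPM (-6.70). All 3 had separate ranges. Grhl2, which maintains E-cadherin and claudin genes, was low in both lines, at 0.96 and 1.53 CPM against 0.0325, 1.17 and 1.21 CPM (0.55, adjusted p = 0.647), with 129 CPM in M6. Luminal products gave 0 of 16 higher in 3T3-L1 and 5 higher in M27H4 (median -0.64), led by the surface antigen gene Cd24a at 385, 447 and 434 CPM against 18.9 and 17 CPM (-4.55, adjusted p = 1.1e-08). The growth factor gene Areg, a known oestrogen target, stood at 52.3, 60.7 and 55.7 CPM against 0.451 and 0.549 CPM (-6.82, adjusted p = 1.24e-08). The milk genes Csn2, Csn1s1, Wap and Lalba had no count in any of the 5 replicates.

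Proximal promoters of the junction genes were read for the E-box that Zeb and Snail factors are known to bind. The letters searched were CACCTG and, on the other strand, CAGGTG, in a window from 250 bases before to 50 after each start in RefSeq on GRCm38.p6. A match was present in 18 of the 22 junction promoters held in the table (81.8%), in 5 of 12 epithelial factor promoters (41.7%), in 3 of 23 matrix promoters (13%), in 1 of 21 fibroblast promoters (4.76%) and in 2726 of all 12542 tested genes with a promoter in the table (21.7%), a gene with several starts being counted once. The share did not follow the call, as 7 of 10 junction promoters of genes higher in M27H4 and 10 of 11 of genes not called held a match. A match describes the letters and says nothing of binding. Printed below as examples are 2 promoters of junction genes higher in M27H4, those of Lsr (chr7:30973420-30973719, minus strand, 4 matches) and Spint2 (chr7:29281928-29282227, minus strand, 3 matches), and for contrast that of Epcam (chr17:87635729-87636028, plus strand, 2 matches), which was not called; each runs 5′ to 3′ on the gene's strand with the matches in capitals. Lsr, the receptor of tricellular junctions, stood at 0.473 and 0.59 CPM in 3T3-L1 and at 0.926, 3.61 and 4.86 CPM in M27H4 (-2.58, adjusted p = 0.0298). M27H4 replicate 1, which shares no LR code with 3T3-L1, lay well under the other M27H4 replicates. Whether carry-over adds to the levels of those replicates was not tested.
Lsr: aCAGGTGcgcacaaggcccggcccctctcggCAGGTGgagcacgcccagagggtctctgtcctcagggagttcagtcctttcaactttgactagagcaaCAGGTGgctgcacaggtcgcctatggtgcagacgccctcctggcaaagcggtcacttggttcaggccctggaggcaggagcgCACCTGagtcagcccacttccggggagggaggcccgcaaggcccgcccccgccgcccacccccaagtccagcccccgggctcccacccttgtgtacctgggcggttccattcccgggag
Spint2: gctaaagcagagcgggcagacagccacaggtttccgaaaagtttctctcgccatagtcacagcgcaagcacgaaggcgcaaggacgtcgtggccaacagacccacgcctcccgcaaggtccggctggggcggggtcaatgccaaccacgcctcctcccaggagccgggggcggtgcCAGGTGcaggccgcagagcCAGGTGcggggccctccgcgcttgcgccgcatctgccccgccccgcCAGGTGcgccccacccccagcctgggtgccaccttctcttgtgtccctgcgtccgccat
Epcam: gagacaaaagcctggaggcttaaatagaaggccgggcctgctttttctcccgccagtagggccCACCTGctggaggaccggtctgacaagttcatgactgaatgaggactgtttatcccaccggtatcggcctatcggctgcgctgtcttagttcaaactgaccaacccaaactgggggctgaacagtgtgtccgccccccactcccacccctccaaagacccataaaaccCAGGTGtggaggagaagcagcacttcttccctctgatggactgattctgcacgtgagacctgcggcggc

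Genes for integrins and laminins were called on both sides. Of 15 hemidesmosome and laminin adhesion genes, 6 were higher in M27H4 and 1 in 3T3-L1 (median -0.58). Integrin beta-4, the core of the hemidesmosome, stood at 0.323 and 0.735 CPM in 3T3-L1 and at 26.7, 24.1 and 19.4 CPM in M27H4 (Itgb4, -5.49, adjusted p = 1.06e-06; -6.15 without 3T3-L1 replicate 2). Its ligand chain laminin alpha-5 stood at 15.1 and 13.8 CPM against 394, 337 and 178 CPM (Lama5, -4.39). The laminin-binding integrin alpha-3 stood at 36.2 and 25.7 CPM against 239, 311 and 224 CPM (Itga3, -3.06). Itga2 (-4.64), Itgb8 (-5.18) and Itgb6 (-1.57) were also higher in M27H4, and collagen XVII, a hemidesmosome component, was higher in 3T3-L1 (Col17a1, 2.49). Of 19 genes for interstitial integrins and mesenchymal laminins, 7 were higher in 3T3-L1 and 4 in M27H4 (median 0.81), with nidogen-2 (5.59; 6.40 without M27H4 replicate 3) and Lama4 (3.62) on the 3T3-L1 side and the collagen-binding integrin Itga11 (-3.16) and Itga8 (-3.77) on the M27H4 side. Of 15 contractile genes 10 were higher in 3T3-L1 (median 1.51), among them the myosin light chain Myl9 at 34.1 and 42.3 CPM against 3.54, 4.98 and 5.43 CPM (3.04), desmin (Des, 6.83), and leiomodin at 2.1 and 3.91 CPM against 0, 0.0419 and 0 CPM (Lmod1). Of the 3 higher in M27H4, the oxytocin receptor of contractile myoepithelium stood at 28.1, 23.1 and 29.7 CPM against 0.0774 and 0.153 CPM (Oxtr, -7.91).

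**Figure D3:**
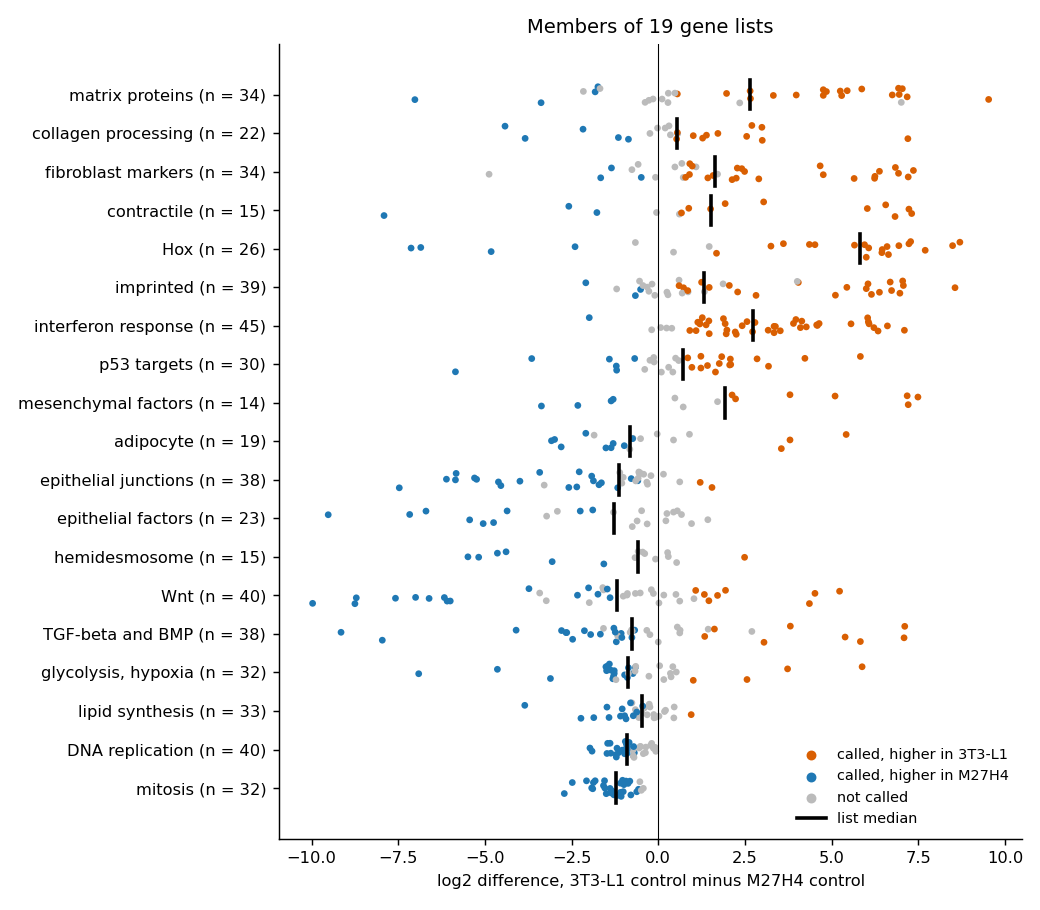
Each point is 1 tested gene of a gene list, placed by its log2 difference (3T3-L1 minus M27H4), with the list's median marked. Interferon, Hox, matrix and fibroblast genes lie mainly on the 3T3-L1 side, and junction, mitosis and replication genes mainly on the M27H4 side.

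Hox genes, which record the position along the body from which cells descend, were expressed in different sets. Of 26 tested, 19 were higher in 3T3-L1 and 4 in M27H4, with a median log2 difference of 5.81. From the front of the A and B clusters, Hoxa2 stood at 15.2 and 18.8 CPM in 3T3-L1 and at 0.0488, 0.215 and 0.277 CPM in M27H4 (6.46) and Hoxb2 at 7.82 and 7.96 CPM against 0.0488, 0.157 and 0.147 CPM (5.95). Hoxa5 (4.36), Hoxd4 (7.23) and Hoxd9 (6.94) were also higher in 3T3-L1, and Hoxd8 stood at 17.6 and 16.3 CPM against 0, 0.398 and 0.547 CPM (5.66). The 4 genes of M27H4 were neighbours within the B cluster. Hoxb9 stood at 29.6, 39 and 31.3 CPM in M27H4 and at 0.218 and 0.258 CPM in 3T3-L1 (-7.13, adjusted p = 6.89e-07), Hoxb7 at 2.15, 1.77 and 2.59 CPM against 0.0137 and 0.0242 CPM (-6.85), and Hoxb6 at 3.87, 4.98 and 5.02 CPM against 1.07 and 0.678 CPM (-2.40), with Hoxb8 between them (-4.82). Hoxb4, nearer the front of that cluster, was not called, at 5.23 and 4.68 against 3.82, 3.8 and 3.31 CPM (0.44, adjusted p = 0.15).

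Imprinted genes, expressed from the allele of 1 parent, gave 21 of 39 higher in 3T3-L1 and 3 higher in M27H4 (median 1.33). Several were expressed in 3T3-L1 and low in M27H4: Peg3, a zinc finger gene, at 22.6 and 30.3 CPM against 0, 0.288 and 0.4 CPM (6.73), Snrpn at 12.9 and 18 CPM against 0, 0.168 and 0.139 CPM (7.05), and the growth-restraining noncoding RNA H19 at 9.23 and 11.2 CPM against 0, 0.377 and 0.0245 CPM (adjusted p = 0.000698). In M27H4 replicate 1 these 3 genes had no count. Others differed within the measurable range of both lines. Igf2r, the receptor that clears insulin-like growth factor 2, stood at 483 and 423 CPM in 3T3-L1 and at 93.6, 99.7 and 84.6 CPM in M27H4 (2.29), and Impact at 88.4 and 118 CPM against 12.7, 16.5 and 14.6 CPM (2.82). The antisense RNA of Igf2r, Airn, was called higher in 3T3-L1 too, at 1.47 and 3.27 CPM against 0, 0 and 0.0163 CPM, levels of M27H4 that lie under the floor of 3 counts; it overlaps Igf2r on the other strand, so its counts are uncertain. Xist, the RNA that silences 1 X chromosome of female cells, stood at 0.2 and 0.388 CPM in 3T3-L1 and at 224, 115 and 78.3 CPM in M27H4 (-8.92, SE 0.73, adjusted p = 2.42e-06), while the Y-linked genes Ddx3y, Uty, Kdm5d and Eif2s3y did not exceed 0.0245 CPM in either line.

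Mdm2 was among the 10 genes with the highest CPM per kilobase in 3T3-L1. It encodes the ubiquitin ligase that destroys p53. Mdm2 (ENSMUSG00000020184, chr10:117688875-117710758, minus strand) stood at 5928 and 5107 CPM in 3T3-L1 and at 69.1, 90.5 and 131 CPM in M27H4 (log2 difference 5.83, SE 0.27, adjusted p = 1.1e-08). Per kilobase of the gene's annotated exons this is 1085 CPM against 19.1 CPM. The next gene on the same strand, Slc35e3, which encodes a nucleotide sugar transporter family member, stood at 826 ± 19.5 CPM (SD, n = 2) against 31.2 ± 7.02 CPM (SD, n = 3; 4.72, adjusted p = 1.14e-07, edgeR). The other genes at 5 CPM or more within 1.5 Mb, a neighbourhood chosen after the values were seen, lay much closer to 0. Among them Rap1b (0.46, adjusted p = 0.0627), Nup107 (-0.19), Cct2 (0.07), Cpsf6 (-0.11), Yeats4 (0.46), Frs2 (-0.51), Rab3ip (-0.55), Cnot2 (-0.11) and Dyrk2 (-0.21) lay within a log2 difference of 1, and Mdm1 was 16.3 CPM in 3T3-L1 against 28.4 CPM in M27H4 (-0.80, adjusted p = 0.0182).

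Targets of p53 were mixed but leaned to 3T3-L1, with 15 of 30 higher there and 6 higher in M27H4 (median 0.72). Cdkn1a, the p21 inhibitor of the cell cycle, stood at 16.7 and 25.3 CPM in 3T3-L1 and at 3.07, 1.84 and 2.06 CPM in M27H4 (3.18), Ccng1 at 513 and 469 CPM against 89.7, 137 and 120 CPM (2.08, adjusted p = 1.74e-06), and the death receptor gene Eda2r at 85.4 and 85.8 CPM against 2.71, 6.6 and 4.27 CPM (4.23). All 3 had separate ranges. In M27H4 the targets Perp, the proapoptotic Pmaip1 (-3.65), Ddb2, Tigar, Plk3 and Sesn1 were higher. Trp53 itself stood at 54.2 and 40 CPM against 34.4, 31.8 and 23.9 CPM (0.65, adjusted p = 0.0266).

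Where replication and mitosis genes were called, they were higher in M27H4. Of 40 replication genes 25 were higher in M27H4 and 0 in 3T3-L1 (median -0.89), and of 32 mitosis genes 29 and 0 (median -1.23; -0.94 without 3T3-L1 replicate 2). Mcm2, a subunit of the replicative helicase, stood at 228 and 191 CPM in 3T3-L1 and at 535, 598 and 595 CPM in M27H4 (-1.46, adjusted p = 2.66e-05), and the ribonucleotide reductase subunit Rrm2 at 46.5 and 29.1 CPM against 143, 141 and 160 CPM (-1.97). Cyclin B2 stood at 48.4 and 36.4 CPM against 256, 276 and 299 CPM (Ccnb2, -2.71, adjusted p = 8.79e-07), and the proliferation marker Mki67 at 125 and 60.6 CPM against 528, 385 and 252 CPM (-2.07, adjusted p = 0.0112). The mitosis genes not called were Kif2c, Ndc80 and Nuf2. Regulators of the cycle gave 9 of 23 higher in M27H4 and 1 in 3T3-L1 (median -0.54; -0.32 without M27H4 replicate 3), and those of M27H4 included inhibitors. Cdkn2c, the p18 inhibitor of Cdk4 and Cdk6, stood at 272, 269 and 261 CPM in M27H4 against 43.6 and 70.4 CPM (-2.23), Cdkn2d at 57.3, 42.5 and 57.9 CPM against 8.43 and 9.5 CPM (-2.55), and Cdkn2a, the locus of p16 and p19Arf, at 444, 322 and 631 CPM against 143 and 221 CPM (-1.36, adjusted p = 0.00337). Mycn, a Myc family gene, stood at 1.8, 5.33 and 7.47 CPM in M27H4 and at 0.0273 and 0.0242 CPM in 3T3-L1 (-7.50).

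Receptor tyrosine kinases divided the lines, with 13 of 43 higher in 3T3-L1 and 17 higher in M27H4 (median -0.34). The neurotrophin-3 receptor Ntrk3 stood at 92.9, 88.2 and 68.6 CPM in M27H4 and at 0.919 and 1.21 CPM in 3T3-L1 (-6.29, adjusted p = 1.83e-08). The ephrin receptor Epha1 stood at 135, 374 and 440 CPM against 0.66 and 1.75 CPM (-8.05, adjusted p = 4.75e-05). The hepatocyte growth factor receptor Met stood at 261, 418 and 356 CPM against 79.9 and 61.4 CPM (-2.29). The vascular endothelial growth factor receptor Kdr, usually a gene of endothelium, stood at 32.1, 22 and 26.4 CPM in M27H4 against 0.118 and 0.0888 CPM (-7.98). On the 3T3-L1 side Ephb2 stood at 47.1 and 38.4 CPM against 0.65, 1.62 and 1.47 CPM (5.08) and Fgfr2 at 18.1 and 48 CPM against 4.14, 7.53 and 6.44 CPM (2.45; 1.61 without 3T3-L1 replicate 2). Of 34 growth factor genes 12 were higher in 3T3-L1 and 7 in M27H4 (median 0.72). Fgf7 and Fgf10, mesenchymal ligands that act on epithelium, stood at 149 and 158 CPM against 1.4, 2.78 and 2.47 CPM (6.10, adjusted p = 3.9e-07) and at 5.08 and 5.81 CPM against 0.0975, 0.0419 and 0.0653 CPM (6.41). Vegfc, a lymphatic growth factor, stood at 40 and 36.2 CPM against 4.1, 2.53 and 3.15 CPM (3.56). M27H4 held more Fgf2, at 32.4, 19.4 and 27.7 CPM against 1.69 and 0.46 CPM (-4.61), and more Gas6, the ligand of the Axl and Mertk kinases, at 1379, 2488 and 3291 CPM against 103 and 180 CPM (-4.08, adjusted p = 0.00124).

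In the transforming growth factor beta and BMP pathway, ligands, antagonists and targets were called on both sides, 8 of 38 higher in 3T3-L1 and 17 in M27H4 (median -0.77). Beside the ligand Bmp4, Tgfb2 (-2.79) and Tgfb3 (-2.47) were higher in M27H4. Of the extracellular antagonists, gremlin stood at 452 and 484 CPM in 3T3-L1 and at 0, 4.53 and 5.47 CPM in M27H4 (Grem1, 7.11, adjusted p = 0.013), and follistatin at 31.5 and 32.5 CPM against 3.9, 4.15 and 3.57 CPM (Fst, 3.05), whereas chordin (Chrd, -2.64) and the follistatin relative Fstl3 were higher in M27H4. Fstl3 was measured at 25.7, 22.6 and 22.7 CPM in M27H4 and at 0.0728 and 0.121 CPM in 3T3-L1 (-7.96, adjusted p = 1.1e-08). Among the called genes of the list that BMP or transforming growth factor beta signalling is known to induce were Id3, an inhibitor of helix-loop-helix factors, at 276, 188 and 208 CPM in M27H4 against 35.1 and 35.6 CPM in 3T3-L1 (-2.66). Id2 stood at 124, 111 and 162 CPM against 8.73 and 6.71 CPM (-4.10), and Id1 (-1.28) and the inhibitory Smads Smad6 (-1.24) and Smad7 (-1.95) were also higher in M27H4.

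The Wnt pathway was also tilted to M27H4, with 15 of 40 genes higher there and 8 higher in 3T3-L1 (median -1.20). Among ligands, Wnt7b stood at 44.8, 125 and 85.9 CPM in M27H4 and at 0.774 and 1.75 CPM in 3T3-L1 (-6.09), Wnt10a at 23.2, 33.4 and 23.1 CPM against 0.31 and 0.533 CPM (adjusted p = 1.09e-07), and Wnt5b at 21.4, 27.4 and 31.5 CPM against 0.341 and 0.404 CPM (-6.17). Wnt5a, a ligand of noncanonical signalling, was the opposite, at 37.1 and 32.9 CPM in 3T3-L1 against 0.618, 1.01 and 2.9 CPM (4.52). The receptor Fzd6 stood at 73.2, 133 and 118 CPM in M27H4 against 0.701 and 1.53 CPM (-6.61). Axin2, a feedback target of beta-catenin, stood at 9.23, 11 and 5.8 CPM against 0.1 and 0.0242 CPM (-7.00), beside Notum, Rnf43 and Sfrp1 given above. Of the nuclear partners of beta-catenin, Tcf7 was higher in M27H4 (-3.73) and Lef1 higher in 3T3-L1, at 8.37 and 3.38 CPM against 0.0325, 0.252 and 0.147 CPM (5.23).

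Nearly all interferon-stimulated genes were called in 1 direction: 40 of 45 were higher in 3T3-L1 and 1 higher in M27H4, with a median of 2.72. Their summed level was 10323 and 11080 CPM in 3T3-L1 and 2363, 2212 and 2131 CPM in M27H4. Interferons act through a transcription factor complex that contains Irf9 and binds a DNA element with paired GAAA repeats in the promoters of antiviral genes. Ifit3, a member of the Ifit family of antiviral genes, stood at 478 and 560 CPM in 3T3-L1 and at 4.6, 8.25 and 10.1 CPM in M27H4 (6.08, SE 0.37, adjusted p = 8.41e-08). Isg15, a ubiquitin-like modifier, stood at 109 and 175 CPM against 19.9, 10.9 and 16.7 CPM (3.17, adjusted p = 8.98e-06). The GTPase gene Mx1 stood at 116 and 171 CPM against 0.065, 1.35 and 1.6 CPM (7.10, adjusted p = 0.000428). The regulator Irf7 was higher in 3T3-L1 as well (3.34). The antigen presentation gene B2m, beta-2-microglobulin, stood at 2051 and 2040 CPM against 428, 306 and 308 CPM (2.56, adjusted p = 1.4e-06), and Oasl2 at 230 and 222 CPM against 7.38, 10.7 and 9.17 CPM (4.64, adjusted p = 1.05e-07). M27H4 replicate 1 held Isg15, B2m and Oasl2 at levels comparable to those of replicates 2 and 3, whereas its Mx1 level was well under theirs. Ifi27 was the member higher in M27H4, at 67.9, 112 and 86.2 CPM against 22.1 and 22.5 CPM (-1.99, adjusted p = 6.08e-05), and Ifit2 (116 and 107 against 78.3, 77.5 and 99.4 CPM, 0.39, adjusted p = 0.651), Oasl1 (0.24), Psmb8 (-0.19) and Psmb9 (0.07) were not called.

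The same promoter window was searched for GAAA, any 2 bases and GAAA, or on the other strand TTTC, any 2 bases and TTTC, which is a simplified form of the interferon-stimulated response element chosen after the values were seen. A match was present in 479 of the 12542 genes (3.82%) and in 16 of the 33 interferon gene promoters in the table (48.5%). All 16 belonged to the 29 genes called higher in 3T3-L1 (55.2%), and 0 to the 4 not called. Printed below, on the gene's strand and with matches in capitals, are the promoters of Ifit3 (chr19:34583279-34583578, plus strand, 2 matches) and Isg15 (chr4:156200769-156201068, minus strand, 3 overlapping matches), which show the separate and the overlapping arrangement of the element.
Ifit3: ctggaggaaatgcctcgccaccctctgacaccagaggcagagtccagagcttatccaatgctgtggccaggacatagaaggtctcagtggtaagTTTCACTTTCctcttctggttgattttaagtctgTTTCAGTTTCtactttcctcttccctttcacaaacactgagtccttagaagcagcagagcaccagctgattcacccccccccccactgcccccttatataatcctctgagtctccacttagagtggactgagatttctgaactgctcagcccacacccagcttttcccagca
Isg15: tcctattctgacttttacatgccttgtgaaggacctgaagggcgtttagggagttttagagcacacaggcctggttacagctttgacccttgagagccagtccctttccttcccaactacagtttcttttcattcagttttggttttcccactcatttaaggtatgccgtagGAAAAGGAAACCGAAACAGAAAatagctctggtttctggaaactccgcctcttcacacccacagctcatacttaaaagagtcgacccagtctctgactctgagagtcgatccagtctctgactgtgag

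Chemokines and cytokines had no common direction, with 12 of 40 higher in 3T3-L1 and 6 higher in M27H4 (median -0.03). The monocyte attractant Ccl2 stood at 371 and 305 CPM in 3T3-L1 and at 0.423, 3.56 and 3.25 CPM in M27H4 (7.11), with its neighbour Ccl7 (7.10) and Ccl9 at 41 and 54.2 CPM against 1.79, 1.62 and 2.74 CPM (4.54). The interferon-inducible Cxcl10 stood at 80.4 and 42.6 CPM against 3.53, 0.975 and 0.808 CPM (5.15). Osteopontin, a secreted phosphoprotein of bone and of many tumours, was among the most abundant RNAs of M27H4, at 8242, 10997 and 11808 CPM against 1276 and 875 CPM (Spp1, -3.27, SE 0.28, adjusted p = 1.25e-06), which per kilobase is 6280 against 653 CPM. Il1rn, the interleukin-1 receptor antagonist, stood at 199, 61.9 and 182 CPM in M27H4 against 2.15 and 2.75 CPM (-5.91). M27H4 replicate 1 stood far above the other M27H4 replicates in several inflammatory genes, seen after the fact: the iron-binding lipocalin Lcn2 at 1506, 17.3 and 16.2 CPM (2.53 and 3.51 CPM in 3T3-L1, adjusted p = 0.0605), Cxcl1 at 347, 9.64 and 10.2 CPM (43.5 and 51.6 CPM, adjusted p = 0.566), Cxcl5 at 446, 27.2 and 45.1 CPM (51.1 and 78.9 CPM, adjusted p = 0.329) and the stress-induced factor Cebpd at 201, 8.64 and 9.43 CPM (31.7 and 55.9 CPM, adjusted p = 0.721). In the last 3 genes 3T3-L1 lay between M27H4 replicate 1 and the other M27H4 replicates, and no line difference was called.

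**Figure D4:**
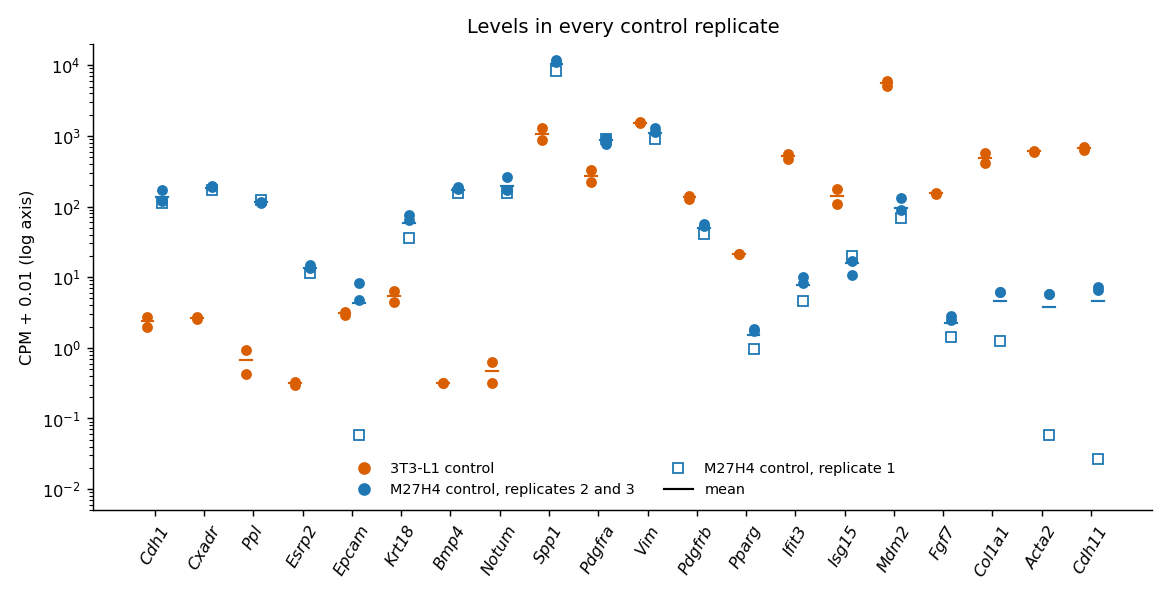
Levels of 20 genes in each control replicate, in CPM plus 0.01 on a log axis with means as bars, with the 2 replicates of 3T3-L1 and the 3 of M27H4 drawn apart and M27H4 replicate 1 as an open square. For Cdh1, Bmp4 and Notum the M27H4 replicates lie together far above 3T3-L1, while for Cdh11 the open square lies far below the other M27H4 replicates.

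Genes of glycolysis and the hypoxia response gave 17 of 32 higher in M27H4 and 4 higher in 3T3-L1 (median -0.86). Lactate dehydrogenase subunits differed in opposite directions, with Ldha the more abundant in both lines: Ldha stood at 769 and 663 CPM in 3T3-L1 and at 2752, 1491 and 1876 CPM in M27H4 (-1.51, adjusted p = 0.00481), and Ldhb at 19 and 28.5 CPM against 4.11, 3.19 and 4.78 CPM (2.56). Aldolase C, the brain form of the enzyme, stood at 95.7, 30.6 and 60.9 CPM in M27H4 against 0.514 and 0.525 CPM (Aldoc, -6.91), with enolase 2 also higher there (Eno2, -3.11). The prolyl hydroxylase gene Egln3 was higher in 3T3-L1 (5.88). Of 18 genes often used as references 6 were called (median -0.23), including B2m (2.56), Gapdh at 146 and 110 CPM against 478, 243 and 223 CPM (-1.29), Pgk1 (-1.27), Hprt (-0.84) and Tbp (-0.78). Actb did not differ beyond the replicate spread, at 3186 and 2445 CPM against 2753, 3890 and 2602 CPM (-0.13, adjusted p = 0.732), nor did the elongation factor gene Eef1a1 at 12980 and 14150 against 10241, 12742 and 13518 CPM (0.16, adjusted p = 0.644). The 10 genes with the highest CPM per kilobase in each line included ribosomal protein genes, with log2 differences for Rplp0 (0.48), Rplp1 (0.25), Rps3a1 (0.52) and Rpl32 (0.09) that did not pass and for Rpl19 that did (0.62, adjusted p = 0.046, lost on leaving out any 1 of the 5 replicates, from 0.0742 to 0.137). Histone genes of M27H4 such as Hist2h2aa2 (-2.55, adjusted p = 0.000197) share reads with near-identical copies, so their single values are uncertain.

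Markers of cell types that neither line should hold were low in 3T3-L1, while M27H4 expressed single endothelial, neural and muscle markers. Immune markers summed to 4.68 and 4.62 CPM in 3T3-L1 and to 2.91, 4.6 and 4.19 CPM in M27H4 over 15 genes, and endothelial markers to 5.38 and 6.96 CPM against 37.2, 27.5 and 32.4 CPM. The endothelial sum of M27H4 was largely Kdr, given above. Neural markers summed to 35.4 and 27 CPM against 138, 127 and 114 CPM, with Mbp, myelin basic protein, at 37.9, 38.9 and 40.5 CPM in M27H4 against 1.1 and 1.53 CPM (-4.90) and the progenitor filament gene Nes higher there (-1.71; -2.31 without 3T3-L1 replicate 1). Muscle markers summed to 6.8 and 8.4 CPM against 13.5, 19.5 and 56.5 CPM, nearly all of it troponin C in M27H4 at 13.2, 19.3 and 56.3 CPM (Tnnc1, -5.20; -4.33 without M27H4 replicate 3). Their part in the other differences was not tested.

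Calls were not spread evenly over the chromosomes, a pattern looked for after the values were seen. On chromosome 12, 48.6% of 652 tested genes were called, 75 higher in 3T3-L1 and 242 higher in M27H4 (median -0.49). Of its 326 genes at 5 CPM or more in both lines, 271 (83.1%) were lower in 3T3-L1, against 53.4% on the other chromosomes, with a median of -0.64 in the controls and -0.63 in the overexpression libraries. All 6 windows of 20 Mb along chromosome 12 had a median under -0.5, and they made up 6 of the 10 such windows among 124. Chromosome 13 leaned the other way, with 224 genes higher in 3T3-L1 and 133 in M27H4 of 753 tested (47.4% called, median 0.36). The exception was the window from 20 to 40 Mb (median -0.74). Of its 100 genes at 5 CPM or more in both lines, 21 were higher in 3T3-L1 and 49 in M27H4. The part of histone genes, whose single values are uncertain, in this window was not tested. Chromosome 1 held 351 against 165 calls (median 0.29), chromosome 6 160 against 289 (-0.29) and chromosome 9 144 against 292 (-0.26), and chromosome 5 had the lowest share of calls among the autosomes and X, at 27.9%.

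**Figure D5:**
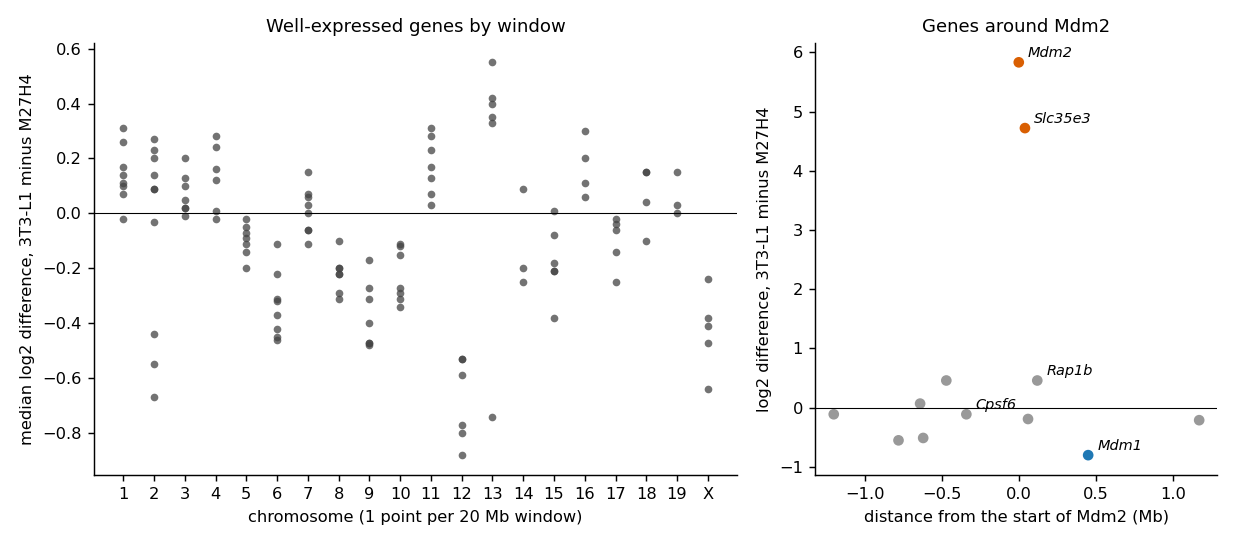
Median log2 difference (3T3-L1 minus M27H4) of genes at 5 CPM or more in both lines, in windows of 20 Mb along each chromosome, and the log2 difference of single genes around Mdm2 by distance from it. The windows of chromosome 12 all lie under -0.5, and in the Mdm2 neighbourhood Mdm2 and Slc35e3 stand at 5.83 and 4.72 while the other genes lie near 0.

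Transcript usage was compared as the share of each gene's count given to its isoforms. Of 6971 genes with more than 1 usable transcript, 248 (3.56%) differed between the lines by limma on arcsine-scaled shares, and 237 of these had the same sign in the overexpression libraries. The count depended on single replicates, falling to 145 without 3T3-L1 replicate 2 and to 155 without M27H4 replicate 3. The largest shifts were whole exchanges in genes of low count: Sybu-202 held 0 and 0% of Sybu in 3T3-L1 and 100, 100 and 100% in M27H4, Rasgef1a-201 held 100 and 100% against 0, 0 and 0%, and Klrg2-203 held 100 and 100% against 0, 1.04 and 0.416%. In the overexpression libraries these shares differed by -15.1, 63.5 and 0.424 percentage points (3T3-L1 minus M27H4). The exchange of Klrg2-203 was thus not repeated there, and those of Sybu-202 and Rasgef1a-201 were smaller. In 94 of the 248 calls the gene had under 100 counts in a replicate. Better counted genes also exchanged isoforms, and 85 calls had at least 1000 counts in all 5 replicates, of which the following were chosen after their values were seen. Spp1-202 held 11.9 and 16.5% of osteopontin transcripts in 3T3-L1 and 66.3, 77 and 75.5% in M27H4, while Spp1-201 held 62 and 59.6% against 19.4, 6.95 and 7.89% (adjusted p = 0.00112). Of the actin crosslinker alpha-actinin 1, Actn1-202 held 49.5 and 73.6% in 3T3-L1 and 3.33, 1.24 and 0.95% in M27H4. Sept9-205, of a septin cytoskeleton gene, held 57 and 57.9% against 2.41, 3.92 and 3.99% (adjusted p = 0.000175), Rubcn-203 held 82.5 and 78.6% against 4.91, 8.94 and 4.59%, and Crybg1-202 held 0.0279 and 0.024% against 71, 80.4 and 89.9%.

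No known Esrp target passed this test. Of 31 tested, 0 were called by limma's test of shares and 0 by edgeR's diffSpliceDGE, and 6 had an unadjusted p under 0.05. Over all 6971 genes these counts were 248 (3.56%), 112 and 1048. At such a share of calls, 31 genes are too few for an absence of calls to set these targets apart. Ctnnd1-202, of the p120 catenin that stabilises cadherins, held 12.9 and 29.3% in 3T3-L1 and 76.5, 58.4 and 57.4% in M27H4 (adjusted p = 0.124), with separate ranges. Epb41l5-202 held 81.6 and 76% against 49.4, 48.2 and 56.6% (adjusted p = 0.0821), Fgfr1-203 28.5 and 29% against 63.1, 44.2 and 48.8% (adjusted p = 0.236), and Cd44-203 72.3 and 70% against 86.4, 79.7 and 74% (adjusted p = 0.302). At the gene level 11 of 35 Esrp targets were higher in M27H4 and 3 in 3T3-L1 (median -0.21).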

How the data were processed

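Strand-specific libraries of total RNA depleted of ribosomal RNA were sequenced in repeats, and the authors deposited expected counts per gene and per transcript. Per the submitters' processing notes, cutadapt, HISAT2, StringTie and edgeR were used on mm10 (GRCm38); versions, annotation release and the strand setting of counting are not given in the sources used here. The CPM tables, each with 1 value column that matched no sample, were not used. Names, types and coordinates came from GENCODE M21 on GRCm38, which matched 48058 of 48440 genes and 116824 of 117667 transcripts; unmatched gene IDs hold 0.0515% of counts.

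Deposited counts were whole numbers, and sequencing repeats of a culture were summed. Genes passing filterByExpr (21237) were fitted with edgeR 4.0.16 in R 4.3.3 (trimmed mean of M values, glmQLFit and glmQLFTest). The fit covered all 14 biological replicates in 6 groups (8 residual degrees of freedom, biological coefficient of variation 0.323), with Benjamini-Hochberg adjustment over all genes. Fold changes are log2 differences of 3T3-L1 minus M27H4. Transcript shares were tested with limma 3.58.1 for genes with 10 or more counts in every replicate and transcripts with a mean share of 5% or more in a group; that share minimum was added after simulated data gave too many false calls without it. DESeq2 1.42.0, limma voom, other scalings, filters, sample sets, replicate blocks and single left-out replicates were tried as alternatives. Both fits were tested on simulated data. The floor of 3 counts covers counting error only.

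Named genes were 13 identity genes, the 12 largest called differences in each direction among protein coding genes at 10 CPM or more with separate replicate ranges, up to 4 members with the smallest p from each of 34 gene lists, the 10 highest genes per kilobase in each line, and set transcripts; other members and genes named were chosen after their values were seen. The comparison, its gene lists and the windows and motifs were chosen with earlier results of these data known. Lists share members (Perp, Kdr, Pdgfra and others). A few genes meeting these criteria were left out of the text.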

Additional observations from a re-analysis of the deposited data

Results flagged for a closer look

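The difference between the lines was compared between control and overexpression libraries for every gene, and edgeR's quasi-likelihood test of that difference called 1 gene of 21237 (320 had an unadjusted p under 0.05; DESeq2 called 11 and limma voom 0). The gene, ENSMUSG00000107554, has no entry in GENCODE M21. It stood at 2.16 and 1.11 CPM in the 3T3-L1 controls, at 5.77, 4.46 and 3.87 CPM in the M27H4 controls, at 2.58 and 8.92 CPM in the 3T3-L1 overexpression libraries and at 0, 0 and 0 CPM in the M27H4 overexpression libraries. The fitted interaction was 14.23 on the log2 scale (SE 1.29, adjusted p = 0.0277), a value that depends on the prior count because 1 group is at 0. All 3 M27H4 overexpression replicates lay below all 3 M27H4 controls, but the gene was picked by its call, so this separation is no further result.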

How the results depend on the processing

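The count of genes that differ between the lines was 7777, and between 5244 (M27H4 represented by its replicate 1 alone) and 9907 under the other analyses of all genes. A test against a 2-fold minimum gave 3607. Leaving out 1 control replicate gave 5271 to 7082 genes, and leaving out 1 overexpression replicate 4711 to 6717 of that contrast's 7412. The interaction count of 1 became 11 with DESeq2, 0 with DESeq2's size factors in edgeR, 0 with voom, 0 with the libraries of these lines alone, and 0 to 5 without single replicates. The 248 transcript share calls became 112 with diffSpliceDGE, 125 at a gene minimum of 100 counts, 145 to 238 without single replicates, and 343 with no minimum share, a setting added after the data were seen. Genes with the lower line under 1% numbered 850, under 0.5% 563 and under 2% 1211.

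Control replicates with the same title number gave correlations of deviations of -0.05 and -0.21, and those sharing an LR code 0.21 and 0.14. With 2 control replicates of 3T3-L1, their deviations from the line mean mirror each other. The -0.21 and the 0.21 both involve M27H4 replicate 2, so they are the same value with opposite signs. These correlations therefore cannot decide whether the title number or the LR code pairs the lines. Both block fits used only the libraries of these 2 lines. Without a block those libraries gave 8755 calls (8298 in overexpression, interaction 0, transcript shares 243). With the title number as a replicate block 8371 genes were called (8102 in overexpression, interaction 0), and with the shared code as the block 9907 (9425 in overexpression, interaction 2, transcript shares 127). Vim, Lgals1, Rplp0 and Rps3a1 gained a call under both blocks, but already over these libraries without a block. Hist2h2bb and Tsix lost theirs under both blocks. Under the code block Epcam (-0.97) and Esrp1 (-1.12) gained a call. The call of 1810019D21Rik was lost under the code block, and already over these libraries without a block (adjusted p = 0.0505). Under the title block Egfl7 and Acta1 lost theirs.

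Of 2968 values of 165 named genes under 18 alternatives, 2852 kept direction and call, 82 lost the call, 25 gained it and 9 reversed; 140 genes kept both throughout. The reversals were Esrp1 at 9.08 (M27H4 replicate 1 alone, which has no Esrp1 count), 0.42 (voom) and 0.75 (title block), Epcam at 5.96, 0.53 and 1.13 in the same analyses and between -1.07 and 0.34 (the latter without M27H4 replicate 2) when single replicates were left out, Eef2 at 0.14 (M27H4 replicate 1 alone) and Rpl32, which ran from -0.03 (without 3T3-L1 replicate 2) to 0.23 when single replicates were left out. Of 594 list medians 572 stayed within the replicate spread of the reported value. The median of epithelial factors went to 0.00 with M27H4 replicate 1 alone, and 20 medians of 6 lists passed to the other side of 0: keratins (up to 1.51), chemokines (up to 0.43), endothelial (0.23), splicing factors (up to 0.12), reference (0.06) and neural genes (down to -0.17). That setting shifted the median of all genes from 0.02 to 0.12; upper quartile and DESeq2 scaling gave 0.07 and 0.06. The cause of these changes was not tested. With 2 and 3 replicates and floors of 0.0137 to 0.0488 CPM, absence cannot be shown at lower levels.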
